A study of Ovis aries with 8 samples.

Results

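The genes described here encode the proteins of the mitochondrial ribosome whose symbols begin with MRPL or MRPS and a digit. A gene was taken when its row carried only such a symbol, and 65 of the 25000 rows qualified, 40 named MRPL and 25 named MRPS. RNA had been sequenced from pancreatic islets picked by hand from near-term sheep fetuses, all singletons of Columbia-Rambouillet ewes. Of 8 fetuses, 4 had received norepinephrine intravenously for 7 days and 4 had received the diluent alone, which was ascorbic acid in saline. The infusion rate was 1 µg/min on the first day, 2 µg/min on the next 3 days and 4 µg/min on the last 3 days. Gestational age was 139 to 140 days in the controls and 137 to 139 days in the norepinephrine group. The labels also give each fetus an animal number that starts with 09 or 10, without saying what the prefix stands for. Controls 1, 3 and 4 and norepinephrine 2 are numbered 10. Control 2 and norepinephrine 1, 3 and 4 are numbered 09. Each library is 1 fetus, and norepinephrine was given to the whole fetus, so an islet value holds direct and indirect effects of the infusion together.

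Mitochondria keep a ribosome of their own, which translates the few respiratory chain subunits that the mitochondrial genome encodes. Its RNA comes from that genome, while all of its proteins are encoded in the nucleus, made in the cytosol and imported. Some proteins have counterparts in bacterial ribosomes and others were gained in the mitochondrial lineage. The large subunit joins amino acids and releases the chain near the inner membrane, and the small subunit holds and decodes the messenger RNA. Beta cells couple glucose oxidation in mitochondria to insulin release, and adrenergic signals acutely restrain that release.

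Expression is given in FPKM, sequenced fragments per length of transcript and per size of the library, so levels can be compared between genes. All 65 genes were above 0 in all 8 fetuses and all passed the minimum mean of 1 FPKM used for testing. The 18 listed islet endocrine markers had means from 1.73 FPKM to 4372 FPKM, the latter for CHGA, with a median of 188 FPKM. The 4 listed erythroid markers were all below the testing minimum. Acinar markers, of which 16 of 31 were listed, summed to 152 to 182 FPKM in the fetuses numbered 10 and to 244 to 1202 FPKM in those numbered 09. Summed FPKM over all rows was 768021 to 796149 in the fetuses numbered 10 and 981583 to 1112624 in those numbered 09. The 100 rows with the highest means held 31.5% to 34.7% of that sum in the former and 37.8% to 39.7% in the latter. Fetal weight was 3.7 to 5 kg in the fetuses numbered 10 and 2.8 to 3.6 kg in those numbered 09, and the youngest 2 fetuses, norepinephrine 4 and 1, were both numbered 09. Counts are not in the table, so the precision of a single value is unknown. Relative depth was inferred from the steps of low FPKM values. How the values were scaled is not stated, and a scaling factor other than library size would enter these ratios. Against control 1, inferred depth was higher in control 3 (1.17 times), control 4 (1.08 times) and norepinephrine 2 (1.01 times). It was lower in norepinephrine 3 (0.726 times) and norepinephrine 1 (0.648 times), both numbered 09. For control 2 and norepinephrine 4 it is unknown.

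The mitochondrial ribosomal protein genes were expressed well above the typical gene, at a median percentile of 82.6 among the 13252 genes tested. Mean levels spanned 31.8-fold around a median of 61.5 FPKM, with 14 genes at 100 FPKM or more and 6 at 20 FPKM or less. The level of MRPS33, a small subunit protein without a bacterial counterpart, was the highest at a mean of 296 FPKM. It was 197, 212, 243 and 278 FPKM in controls 1, 3 and 4 and norepinephrine 2, and 469, 319, 371 and 281 FPKM in control 2 and norepinephrine 1, 3 and 4. Below it came MRPS21 at 226 FPKM, MRPS36 at 198 FPKM, MRPL17 at 183 FPKM, MRPL52 at 177 FPKM and MRPL14 at 166 FPKM. The ranges of these neighbours over the 8 fetuses overlapped. MRPS36 keeps its historical symbol, but its product is now known as a subunit of the oxoglutarate dehydrogenase complex, so it was counted with neither subunit. MRPL32 had the lowest mean, 9.33 FPKM, with 7.1 to 12.5 FPKM across fetuses. MRPL19 at 14.5 FPKM, MRPS30 at 15.8 FPKM, MRPS22 at 16.4 FPKM, MRPS23 at 17.8 FPKM and MRPS31 at 18.5 FPKM stood just above it.

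Large and small subunit genes had close median levels. The median of the 42 large subunit genes was 60.6 FPKM and that of the 22 small subunit genes was 62.8 FPKM. MRPS18A and MRPS30 were placed in the large subunit, where their products sit despite the names. The 3 paralogues of a single bacterial small subunit protein differed in level, with means of 105 FPKM for MRPS18A, 63.3 FPKM for MRPS18C and 33.0 FPKM for MRPS18B. These genes lie on 22 chromosomes and on unplaced scaffolds, which hold MRPL23 and MRPS2. For 11 of them another row has the same locus. MRPL46 and MRPS11 share 1 locus on chromosome 18 (18652815 to 18673460 on Oar_v3.1), so how fragments were divided between them is uncertain.

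**Figure D1:**
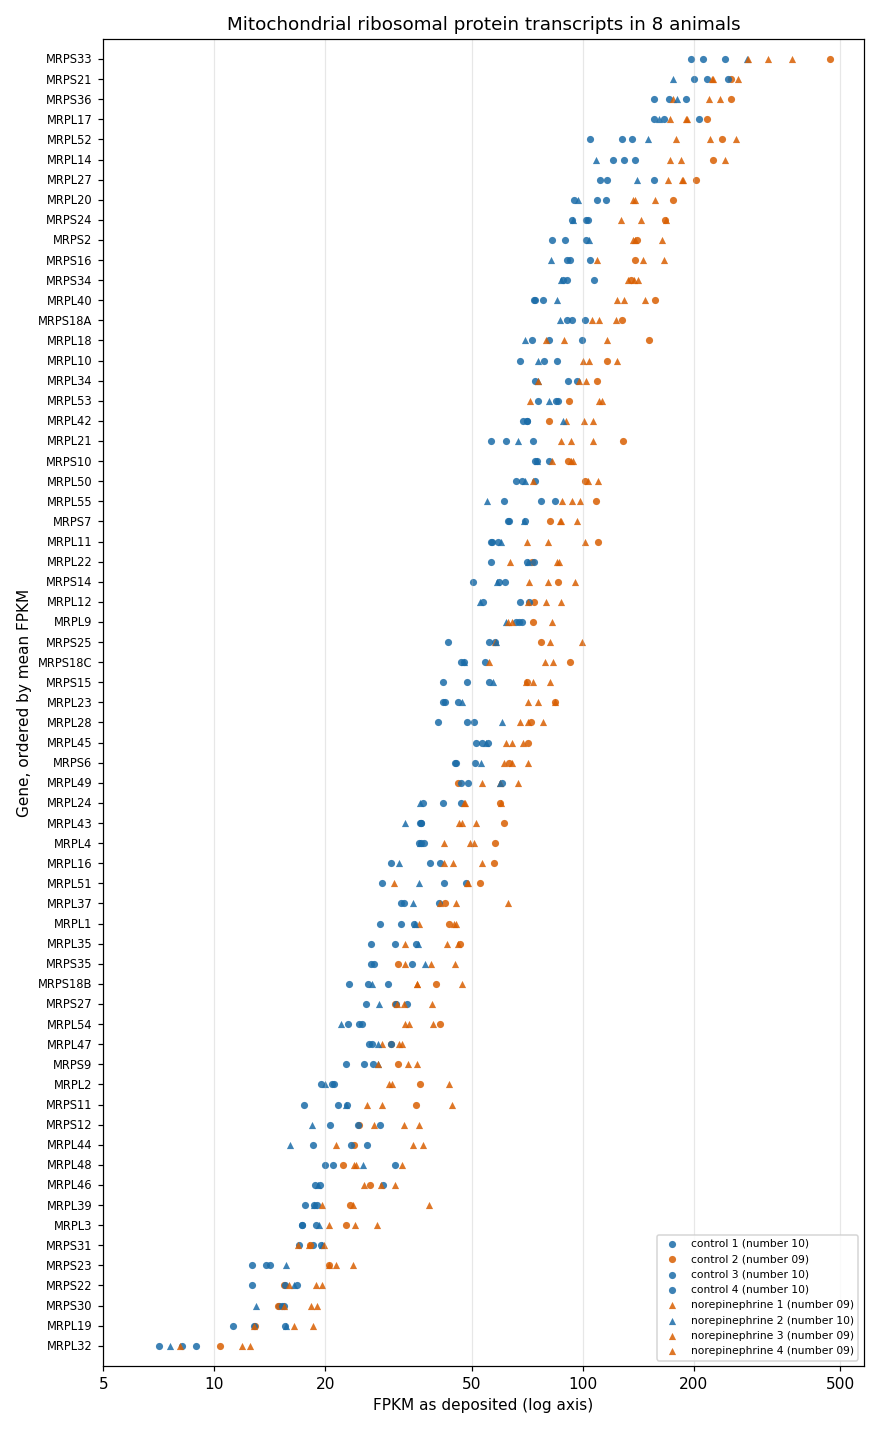
FPKM of each of the 65 genes (log axis), with genes ordered by mean level, circles for controls, triangles for norepinephrine, orange for animal numbers starting with 09 and blue for those starting with 10. Levels run from a mean of 9.33 FPKM for MRPL32 to 296 FPKM for MRPS33, and in 38 genes every blue point lies to the left of every orange point.

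The question the study was built on is what a week of norepinephrine does to islet transcripts. None of the 65 genes passed the test between norepinephrine and control animals (limma on log2(FPKM + 1), Benjamini-Hochberg adjustment over 13252 genes). Of all genes tested 0% passed, and 975 genes, among them 3 mitochondrial ribosomal protein genes, had an unadjusted p under 0.05. The mean was higher with norepinephrine for 59 of the 65 genes and lower for 6, with a median log2 difference of 0.19, against 0.017 over all tested genes, of which 52.6% had the higher mean with norepinephrine. With every fetus scaled to the same summed FPKM, 43 of the 65 had the higher mean and 22 the lower, with a median of 0.040 against -0.12 over all tested genes. As deposited, single genes ran from -0.16 for MRPL18 to 0.46 for MRPL52. The median was 0.17 in the large and 0.24 in the small subunit.

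MRPL42, a large subunit protein gained in the mitochondrial lineage, was the only one of the 65 whose treatment groups did not overlap. Its level was 68.8, 81.1, 70.4 and 70.5 FPKM in controls 1 to 4 and 90.0, 88.6, 100.5 and 106.6 FPKM in norepinephrine 1 to 4. Every norepinephrine value lay above every control value. Across all tested genes, 1.88% were likewise higher with norepinephrine without overlap. The log2 difference was 0.40 with an SE of 0.115, and limma's adjusted p was 0.523, the lowest among these genes. The difference was 0.28 among the fetuses numbered 09 and 0.34 among those numbered 10, higher with norepinephrine in both. MRPL42 is on chromosome 3 (129632326 to 129646398 on Oar_v3.1).

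The other genes with an unadjusted p under 0.05 as deposited were MRPS35, a small subunit protein, and MRPL28 of the large subunit. With equal summed FPKM 0 of the 65 had an unadjusted p under 0.05 (limma). On that scale the log2 differences were 0.25 for MRPL42, 0.21 for MRPS35 and 0.25 for MRPL28. MRPS35 was at 29.9 ± 3.7 FPKM in controls and 38.6 ± 5.0 FPKM with norepinephrine (SD, n = 4 each), a log2 difference of 0.36 with a limma adjusted p of 0.632. Control 4, at 34.4 FPKM, exceeded norepinephrine 3, at 33.0 FPKM. MRPL28 was at 53.0 ± 13.6 FPKM in controls and 69.2 ± 7.5 FPKM with norepinephrine, with a limma adjusted p of 0.666. Its control values spread from 40.5 to 72.3 FPKM, and the highest was control 2. MRPL52 had the largest mean difference, but its controls ran from 104.5 to 238.8 FPKM and its norepinephrine values from 150.4 to 260.0 FPKM, with a limma adjusted p of 0.723. MRPL23, MRPS23, MRPS2, MRPS15 and MRPL40 had differences of 0.39 to 0.40 and also overlapped between the groups.

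The genes with no or negative differences included MRPL18, whose bacterial counterpart contacts the smallest RNA of the large subunit. MRPL18 was at 99.4, 151.1, 72.7 and 81.2 FPKM in controls 1 to 4 and at 79.3, 69.5, 89.2 and 116.7 FPKM in norepinephrine 1 to 4. The value of control 2 was the highest of the 8. MRPL34, MRPS21, MRPL51, MRPL17 and MRPL9 had differences of -0.08 to -0.03, and MRPL55 and MRPS31 of 0.01 and 0.02. MRPS31 had nearly the same level in every fetus, 16.9 to 19.8 FPKM.

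Within the number groups the median difference was close to 0. With control 2 as the only control among the fetuses numbered 09, the median difference of the 65 genes was -0.057, and 28 of 65 were higher with norepinephrine. With norepinephrine 2 as the only treated animal among those numbered 10, the median was 0.0094 and 34 of 65 were higher. Over all tested genes the corresponding medians were -0.037 and 0.0030. In all, 18 genes were higher with norepinephrine in both number groups, 21 were lower in both and 26 had opposite signs. With the prefix as a covariate, the median went from 0.19 to -0.018, with 27 genes higher and 38 lower, 0 passed the test, and 4 had an unadjusted p under 0.05. For 32 genes the sign turned from higher to lower.

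A test of whether the norepinephrine difference itself differed between the number groups found none of the 65 genes (limma interaction term, lowest adjusted p 0.848), with 1 gene at an unadjusted p under 0.05. In all tested genes 0.121% passed. That gene was MRPS33, whose difference was -0.54 in the fetuses numbered 09 and 0.36 in those numbered 10. Each number group holds 1 lone animal of a treatment, which the model assumes to vary like the others. MRPL44, a large subunit protein with an RNase-like fold, and MRPS12, a protein of the decoding centre, pointed the other way. MRPL44 differed by 0.32 and -0.46 and MRPS12 by 0.35 and -0.38 in the 2 groups.

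**Figure D2:**
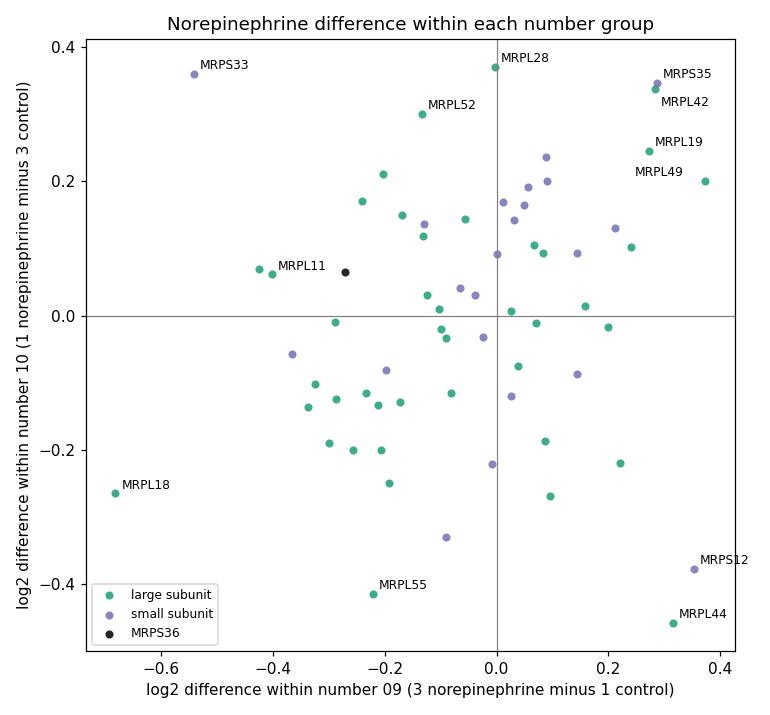
Each point is 1 of the 65 genes; the horizontal axis is the log2 difference, norepinephrine minus control, among the fetuses numbered 09 (3 norepinephrine, 1 control), and the vertical axis the same among those numbered 10 (1 norepinephrine, 3 controls). The points surround the origin, with 18 genes positive on both axes, 21 negative on both and 26 of opposite sign; MRPL42 and MRPS35 are positive on both.

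Between the number groups many of the 65 genes differed. In a model that also holds treatment, 29 of them (44.6%) were lower in the fetuses numbered 10 and 0 were higher, where 10.4% of all tested genes were lower and 6.06% higher (limma, adjusted p under 0.05 over 13252 genes). Their median log2 difference, 10 minus 09, was -0.40, against -0.088 over all tested genes. The fitted difference was below 0 for 61 of 65 genes. As deposited, every fetus numbered 10 was below every fetus numbered 09 for 38 genes (58.5%). Across all tested genes 14.8% were separated in this way. All 29 genes that passed were among these 38. With equal summed FPKM, 3 of the 65 were lower in the fetuses numbered 10 without overlap and 4 were higher. The share of all tested genes without overlap on that scale was not computed. The prefix cannot be told apart from whatever else it stands for, and fetal weight also did not overlap between the 2 groups. Neither did summed FPKM, nor inferred relative depth in the fetuses where it is known.

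Each fetus was also read on its own. Summed over the 65 genes, expression was 3794, 4010, 4168 and 3996 FPKM in controls 1, 3 and 4 and norepinephrine 2. It was 5888, 5207, 5145 and 5725 FPKM in control 2 and norepinephrine 1, 3 and 4. Both treatments are on each side of that gap. As deposited, norepinephrine 4 held the highest value of 33 genes, control 2 of 21, norepinephrine 3 of 6 and norepinephrine 1 of 5. No fetus numbered 10 held a highest value. Control 1 held the lowest value of 33 genes. Control 2 was above all 3 other controls for 52 genes and within the range of norepinephrine 1, 3 and 4 for 35. Norepinephrine 2 was below all 3 other treated animals for 53 genes and within the range of controls 1, 3 and 4 for 31. With equal summed FPKM, control 2 was above all 3 other controls for 18 genes and below them for 27. Norepinephrine 2 was then below all 3 other treated animals for 20 and above them for 18. On that scale norepinephrine 2 and control 4 each held the highest value of 11 genes, and norepinephrine 4 of 17. Shares over all tested genes were not computed for these counts.

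**Figure D3:**
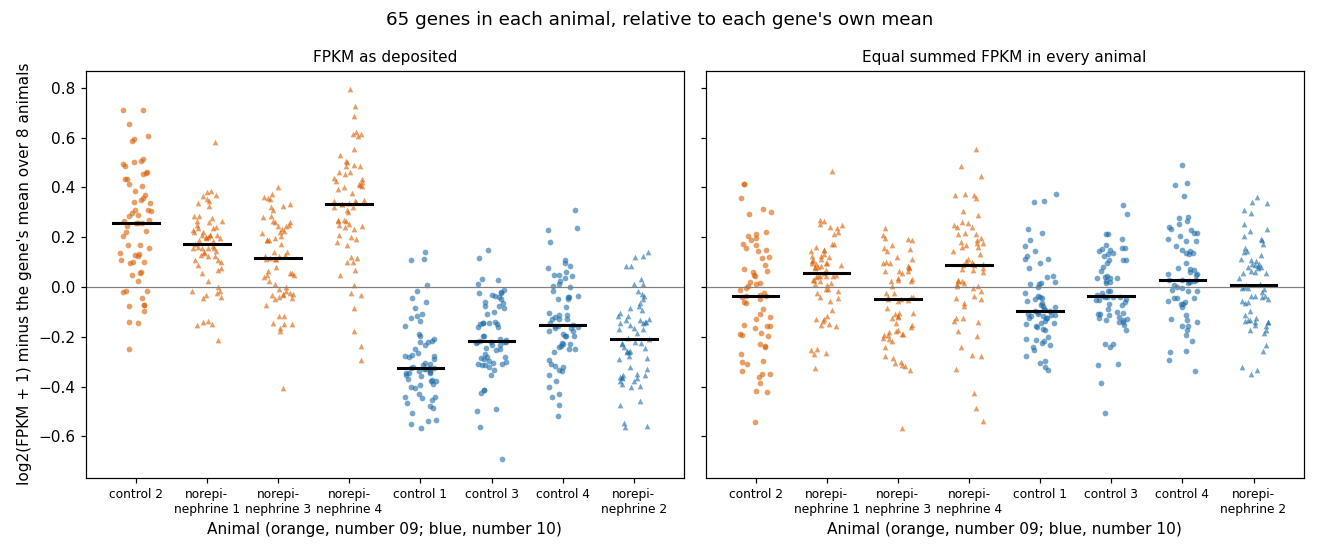
Deviation of each of the 65 genes from its own mean over the 8 fetuses (log2(FPKM + 1) scale), 1 column of points per fetus, black bars at the median, circles for controls and triangles for norepinephrine, as deposited (left) and with every fetus scaled to the same summed FPKM (right). As deposited the medians are 0.12 to 0.34 in the fetuses numbered 09 (orange) and -0.32 to -0.15 in those numbered 10 (blue), and after scaling all 8 lie between -0.095 and 0.090.

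Among large subunit genes, 18 of 42 were lower in the fetuses numbered 10. MRPL40, a protein gained in the mitochondrial lineage, had the largest difference. Its level was 73.8, 77.8, 74.4 and 84.9 FPKM in controls 1, 3 and 4 and norepinephrine 2, and 157.5, 123.6, 129.1 and 148.0 FPKM in control 2 and norepinephrine 1, 3 and 4. The 4 low values lie close together and the lowest of the high values exceeds all of them. The log2 difference was -0.85 with an SE of 0.121 (limma, adjusted p = 0.0105). MRPL40 is on chromosome 17 (71876220 to 71878482 on Oar_v3.1).

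MRPL14, a conserved protein of the face that meets the small subunit, came next. It was at 121.0, 129.6, 139.0 and 109.0 FPKM in the fetuses numbered 10 and 226.1, 184.4, 172.5 and 243.2 FPKM in those numbered 09, with the animals in the same order. The log2 difference was -0.83, with a limma adjusted p of 0.0142. MRPL14 is on chromosome 20 (17718986 to 17722210), as are MRPL2, MRPS18A, MRPS18B and MRPS10. MRPL23 sits at the rim of the tunnel through which the new chain leaves. It was at 42.4, 41.7, 45.9 and 47.0 FPKM against 84.1, 71.0, 75.9 and 83.9 FPKM, a log2 difference of -0.82 with a limma adjusted p of 0.0103. Among these 65 genes it had the lowest adjusted p.

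The tunnel exit and the stalk of the large subunit were examined next. At the tunnel exit, MRPL24 differed by -0.51 (limma, adjusted p = 0.0388), and MRPL45, which tethers the ribosome to the inner membrane, by -0.33 (limma, adjusted p = 0.0482). MRPL45 was at 53.6 ± 1.8 FPKM in the fetuses numbered 10 and 66.6 ± 4.0 FPKM in those numbered 09 (SD, n = 4 each). At the stalk, which recruits translation factors, MRPL10 differed by -0.56 and MRPL11 by -0.70, and both passed the test. MRPL12, the factor-binding protein of the stalk, was at 61.4 ± 9.7 FPKM and 78.0 ± 7.1 FPKM, a difference of -0.39 with a limma adjusted p of 0.107. It was 71.7 FPKM in control 4 and 71.1 FPKM in norepinephrine 3, so its groups overlapped.

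MRPL2, a conserved protein close to the catalytic centre, was at 20.4 ± 0.8 FPKM against 34.9 ± 6.3 FPKM, and MRPL21 at 64.5 ± 7.2 FPKM against 104 ± 18 FPKM. The lineage-specific proteins MRPL43, MRPL54, MRPL55 and MRPL52 were lower by -0.64, -0.69, -0.65 and -0.75. MRPL43 was at 36.1, 36.4, 36.3 and 32.9 FPKM in controls 1, 3 and 4 and norepinephrine 2, and at 61.1, 47.1, 51.3 and 46.3 FPKM in control 2 and norepinephrine 1, 3 and 4. MRPL20, MRPL27, MRPL4, MRPL16 and MRPS18A also passed, with differences of -0.64 to -0.40. By origin, 11 of 24 bacterial-type large subunit genes and 7 of 18 lineage-specific ones passed, at medians of -0.47 and -0.40. The difference between these classes was not tested.

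Among small subunit genes, 11 of 22 were lower in the fetuses numbered 10, with a median of -0.47. MRPS18C, which holds the place of the bacterial protein among the 3 paralogues, was at 46.8, 47.6, 54.4 and 47.6 FPKM in the fetuses numbered 10 and 92.2, 55.5, 78.8 and 83.0 FPKM in those numbered 09. Norepinephrine 1 lay nearest to the low group. The difference was -0.73, with a limma adjusted p of 0.0281, and MRPS18B and MRPS18A differed by -0.56 and -0.40. MRPS24 was at 93.8, 101.9, 103.7 and 94.1 FPKM against 166.8, 144.1, 127.1 and 167.9 FPKM, a difference of -0.68 with a limma adjusted p of 0.0148. MRPS34, a protein of the mitochondrial lineage, was at 93.4 ± 9.2 FPKM against 136.8 ± 3.8 FPKM, a difference of -0.57.

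MRPS2, MRPS16, MRPS14, MRPS23, MRPS15, MRPS6 and MRPS7 passed as well, with differences of -0.64 to -0.35. MRPS12 of the decoding centre did not pass, at 23.0 ± 4.3 FPKM against 30.1 ± 5.2 FPKM. MRPS33 did not overlap between the groups, but its high values spread from 281 to 469 FPKM and its limma adjusted p was 0.0637. MRPS10, MRPS9, MRPS11, MRPL28, MRPL37, MRPL1, MRPL39 and MRPL3 likewise separated the number groups without passing the test. By origin, 8 of 13 bacterial-type small subunit genes and 3 of 9 others passed.

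Only 4 of the 65 genes had the higher fitted value in the fetuses numbered 10. MRPL49 was at 60.5, 46.8, 48.7 and 59.5 FPKM in controls 1, 3 and 4 and norepinephrine 2, and at 45.9, 59.7, 66.6 and 53.4 FPKM in control 2 and norepinephrine 1, 3 and 4, a difference of 0.08. Its number groups overlapped over most of their range. MRPS31, MRPL19 and MRPL48 had differences of 0.05, 0.01 and 0.00. MRPS35, MRPS22, MRPL47 and MRPL22 followed at -0.08 to -0.13, and none of these 8 passed. MRPS31, MRPL19 and MRPS22 are among the 6 genes with the lowest levels. Across the 65 genes, the number-group difference had a Spearman rho of -0.37 with the level and 0.39 with the length of the locus. Over all genes these were -0.25 and 0.33. These are descriptions across genes, which share the 8 libraries, and level and locus length are themselves related (rho of -0.51 across the 65).

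**Figure D4:**
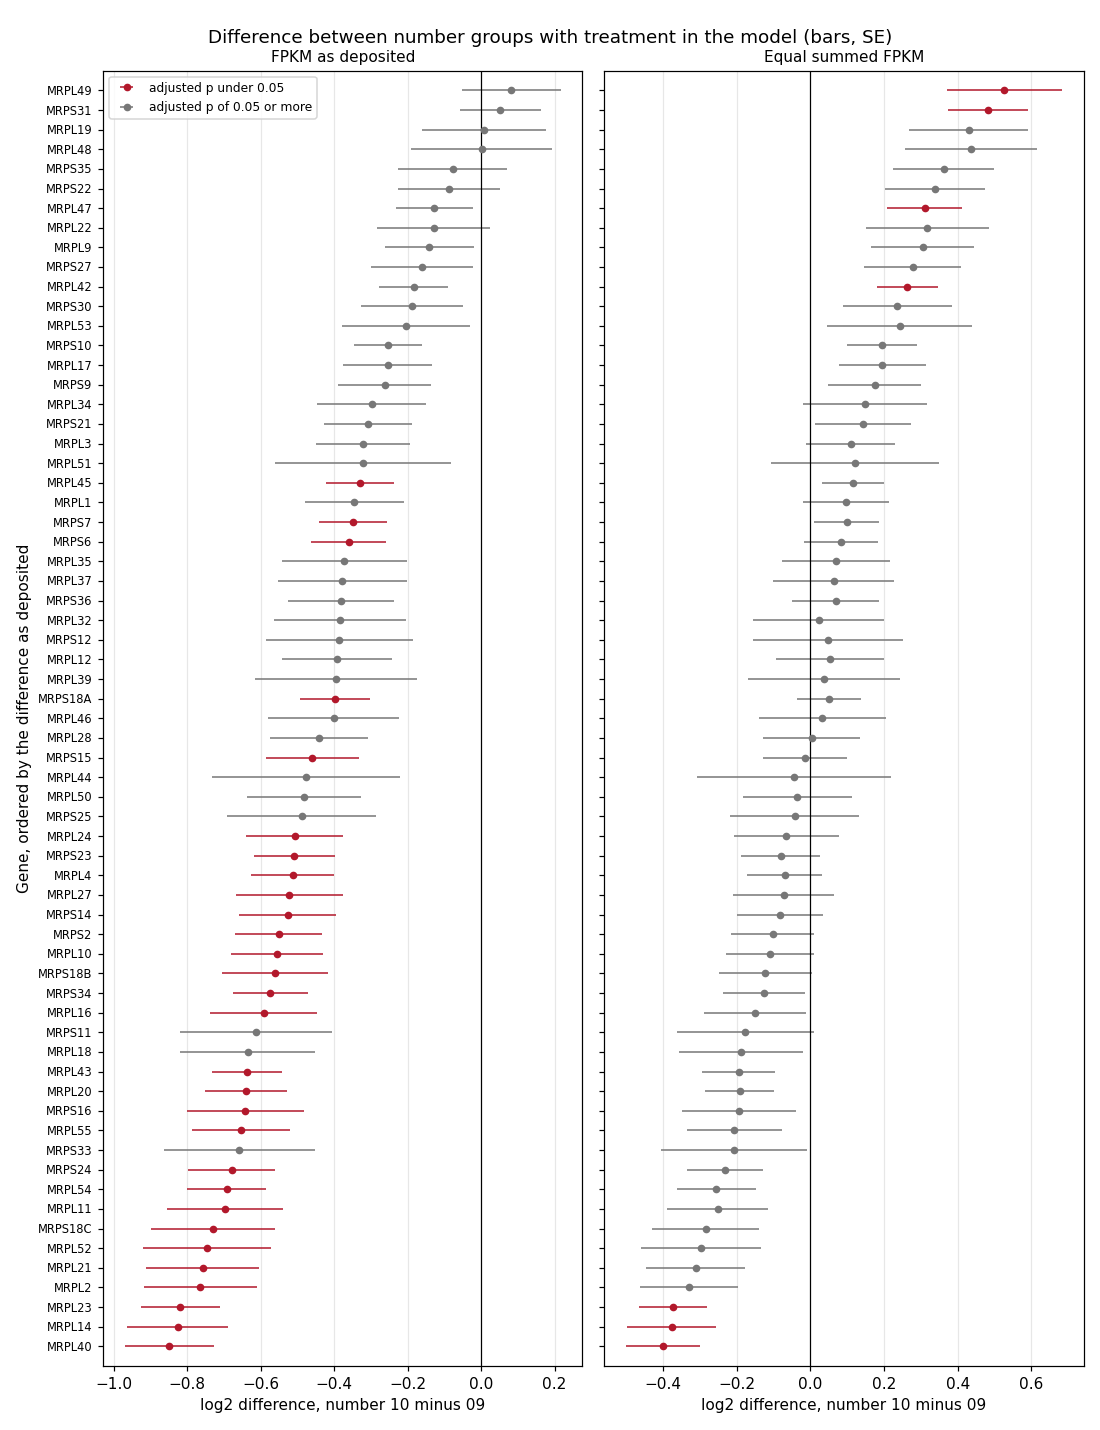
Fitted log2 difference (10 minus 09, in a model that also holds treatment) of each of the 65 genes with its SE as a bar, red where limma's adjusted p is under 0.05, as deposited (left) and with equal summed FPKM (right). On the left 29 genes are red and all lie below 0; on the right 3 red genes lie below 0 and 4 above.

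The difference between the number groups depends on the scale. As a share of summed FPKM, the 65 genes took 0.494% to 0.532% in every fetus, with 0.494% to 0.523% in those numbered 10 and 0.506% to 0.532% in those numbered 09. When every fetus was scaled to the same summed FPKM, the median difference moved from -0.40 to 0.023 and that of all tested genes from -0.088 to 0.31. Relative to all tested genes the 65 thus stood at -0.31 as deposited and at -0.29 after scaling. Scaling shifts all genes of a fetus nearly alike, so this relative value could hardly change. On the equal-sum scale 7 of the 65 passed, 3 lower and 4 higher in the fetuses numbered 10, where 1.79% of all tested genes were lower and 31% were higher. MRPL40 at -0.40, MRPL14 at -0.38 and MRPL23 at -0.37 were lower on both scales. MRPL49 at 0.53, MRPS31 at 0.48, MRPL47 at 0.31 and MRPL42 at 0.26 were higher on the equal-sum scale and had not passed as deposited. In all, 30 genes with a negative difference as deposited had a positive one there. Among them were MRPL45, MRPS18A, MRPS6 and MRPS7, which had passed as lower.

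The count also rests on single animals. Without control 2, the only control numbered 09, none of the 65 passed, although 28 had an unadjusted p under 0.05 and the median was -0.43. Without norepinephrine 2, the only treated animal numbered 10, 6 passed and the median was -0.50. Without control 1, 3 or 4 the count was 13, 11 and 13. MRPL21, MRPL23, MRPL40, MRPL43 and MRPL54 passed with any 1 animal left out other than control 2. MRPL43 shares its locus with SEMA4G and MRPL54 with APBA3, so how fragments were divided there is uncertain. With gestational age in the model 0 passed, 28 had an unadjusted p under 0.05 and the median was -0.34. With the mean of the acinar markers in the model 5 passed and the median was -0.55. Of all tested genes 1 passed with gestational age and 233 with the acinar mean in the model.

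Proteins of the same ribosome that carry other symbols were examined beside these genes. In the large subunit, GADD45GIP1 was at 30.8, 29.9, 32.1 and 38.3 FPKM in controls 1, 3 and 4 and norepinephrine 2, and at 61.0, 52.2, 47.1 and 46.6 FPKM in control 2 and norepinephrine 1, 3 and 4. GADD45GIP1 and ICT1, a peptidyl-tRNA hydrolase built into the subunit, were lower in the fetuses numbered 10 at -0.65 and -0.72. MRP63 at -0.58 did not pass. In the small subunit, AURKAIP1, CHCHD1 and the GTP-binding DAP3 were lower at -0.76, -0.51 and -0.47, while PTCD3, an RNA-binding protein, was at 32.8 to 40.7 FPKM in all 8 fetuses. On the equal-sum scale none of these 7 passed as lower, although the fitted difference was below 0 for all but PTCD3. AURKAIP1 was at -0.31, ICT1 at -0.27 and GADD45GIP1 at -0.20 (limma, adjusted p = 0.077, 0.24 and 0.31). PTCD3 was higher at 0.44 (limma, adjusted p = 0.0207), on a scale where 31% of all tested genes were higher. None of the 7 passed between treatments.

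The factors that build and serve the mitochondrial ribosome were read from the same fit. Of 20 tested assembly factors 4 were lower in the fetuses numbered 10, with a list median of -0.15. They were MPV17L2 at -0.77, MALSU1, which binds the large subunit during assembly, at -0.56, the helicase DDX28 at -0.55 and the methyltransferase FTSJ2 at -0.50. Of 15 translation factors and helpers 4 were lower, with a median of -0.31. SLIRP, which stabilises mitochondrial messenger RNA with LRPPRC, was at 223, 268, 283 and 246 FPKM against 582, 440, 375 and 491 FPKM, a difference of -0.99. The elongation factor TSFM at -0.68, the membrane insertase OXA1L at -0.51 and the release factor MTRF1L at -0.41 also passed, and LRPPRC, at 0.30, did not on this scale. Of 17 genes of mitochondrial aminoacyl-tRNA synthesis 1 passed, the lysyl-tRNA synthetase KARS at -0.55, whose product also serves the cytosol, and the list median was 0.043. Of 16 genes of mitochondrial transcription and genome upkeep 3 passed, the nuclear receptor ESRRA at -0.85, MYC at -0.70 and the helicase C10orf2 at -0.58, with a median of -0.072. Over all tested genes 10.4% were lower and 6.06% higher. The shares were not tested against each other or against all genes. On the equal-sum scale the calls in these lists were mostly higher in the fetuses numbered 10, as were those over all tested genes. Of all tested genes 31% were higher and 1.79% lower there, with a median of 0.31. Among assembly factors 0 were lower and 5 higher, with a median of 0.25. Among translation factors SLIRP was still lower and 5 were higher, LRPPRC among them at 0.74. Of the aminoacyl-tRNA synthesis genes 0 were lower and 6 higher, and of the transcription and upkeep genes ESRRA was lower and 7 were higher.

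The cytosolic ribosomal protein genes and the subunits of respiratory complex I were set beside these lists. Of 39 tested cytosolic ribosomal protein genes 33 were lower in the fetuses numbered 10, with a median of -0.83, among them RPL10 at -1.07 and RPS20 at -1.05. On the equal-sum scale 26 of the 39 were lower, with a median of -0.37. Of 24 complex I genes 16 were lower, among them NDUFS8 at -0.85, NDUFV1 at -0.72 and NDUFA3 at -0.71, with a median of -0.58. On the equal-sum scale 0 complex I genes passed as lower (1 at an unadjusted p under 0.05) and 1, NDUFS1, passed as higher. The median there was -0.14. Over all tested genes 1.79% were lower and 31% higher on that scale. The median of the mitochondrial ribosomal protein genes lay between those of the assembly factors and complex I on both scales. Near-identical copies can share reads among cytosolic ribosomal protein genes, so single values there are uncertain. Between treatments 0 genes of any of these lists passed (limma), 5 of 138 had an unadjusted p under 0.05, and the medians were 0.27 for the cytosolic ribosomal proteins, 0.093 for complex I, 0.21 for translation factors and 0.096 for assembly factors.

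**Figure D5:**
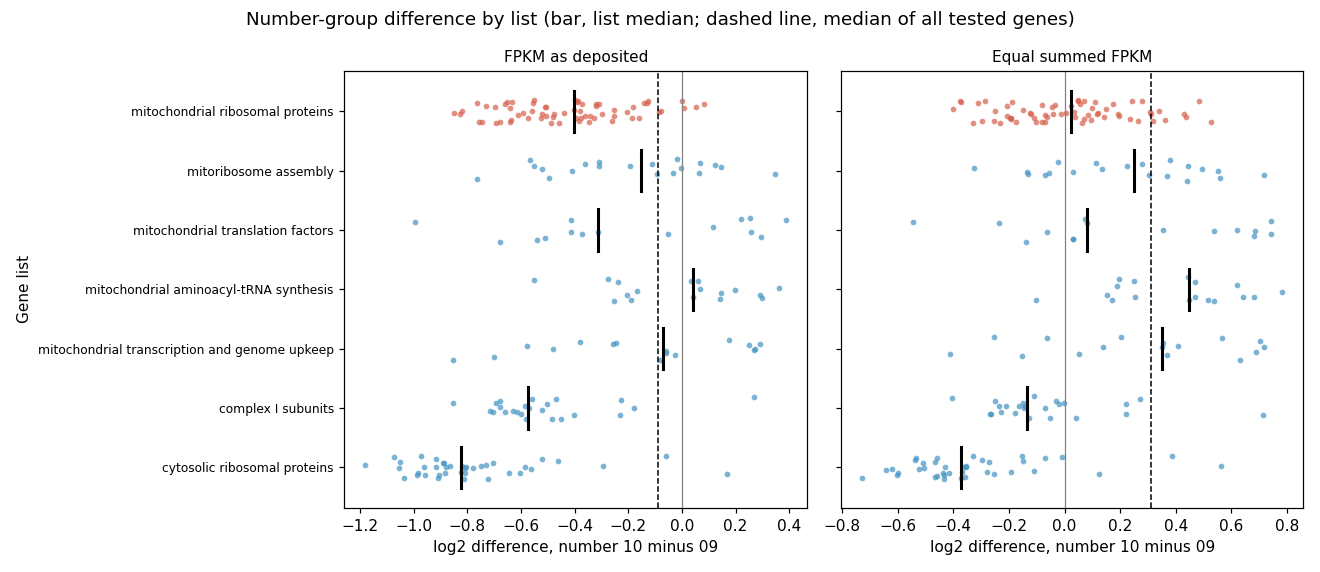
Fitted log2 difference between number groups (10 minus 09) of every tested gene in 7 lists, with a bar at each list's median and a dashed line at the median of all tested genes, as deposited (left) and with equal summed FPKM (right). The mitochondrial ribosomal proteins have a median of -0.40 on the left and 0.023 on the right, with the dashed line at -0.088 and 0.31.

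Markers of acinar cells, the exocrine cells around the islets, were read from the same fits. Of 11 tested markers 2 (18.2%), PLA2G1B and CTRC, were lower in the fetuses numbered 10, against 10.4% of all tested genes. The list median was -1.46. All 11 had higher means with norepinephrine, with a median of 1.04 and none passing. With the prefix in the model the means of 8 were higher and of 3 lower with norepinephrine, with a median of 0.52. The defining marker CPA1 was present throughout. Within the fetuses numbered 09, acinar markers summed to 244, 674, 1202 and 438 FPKM in control 2 and norepinephrine 1, 3 and 4. The 65 genes summed to 5888, 5207, 5145 and 5725 FPKM in the same order, and the relation was not tested. With the acinar mean in the model, the median norepinephrine difference of the 65 genes was 0.025, against -0.0042 over all tested genes. The acinar sums did not overlap between the number groups. In these bulk samples, fewer cells of a type and less RNA per cell cannot be told apart.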

How the data were processed

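RNA from islets of 8 fetuses was measured as paired reads of 100 bp from libraries of selected messenger RNA, per the labels' protocols. The submitters' processing notes name TopHat2 2.0.1, Cufflinks 2.1.1, Cuffdiff and the build Oar_v3.1. For annotation, strand and filters nothing is stated in the sources used here. Per the file headers and the deposited values, the table holds 1 FPKM value per gene and fetus, scaled by the authors, and no counts. Without strand, reads of antisense partners cannot be told apart. The number of sample columns left out was 0. Rows merging several names were not used. One of them, MRPL38 with TRIM65, names a gene of this family, and MRPL13, MRPL15 and others were not analysed here. Symbols were checked against RefSeq names of another assembly (ARS-UI_Ramb_v3.0), which 63 of 65 matched.

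FPKM values entered the test as log2(FPKM + 1), on which changes of low genes look smaller than they are, for 13252 rows with a mean of at least 1 FPKM. The test was limma 3.58.1 in R 4.3.3 (two-sided, eBayes with an intensity trend), with p-values adjusted by Benjamini-Hochberg over all tested rows and a threshold of 0.05. The treatment model has no covariate, and the model of the number prefix includes treatment. The fit was tested on simulated data. Tables were summarised with pandas 2.3.3 in Python 3.11.15. Relative depth was inferred from the steps of low FPKM values, which also hold any other scaling factor, and no counting interval could be computed.

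Genes named are those of highest and lowest level, the 8 most positive and 8 most negative differences and the 12 lowest adjusted p or widest gaps per comparison, and genes of known place. Others of the 65 and of the other lists were named after their values were seen. One gene that the rule takes is not reported here. The genes and lists were chosen with earlier results of these data known. Replicate numbers were not treated as pairs in the main models. Same-numbered animals of the 2 groups had deviations from their group means that correlated at -0.16, -0.38, -0.034 and 0.093 across tested genes. Such correlations can neither show nor exclude a pairing in the design.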

Additional observations from a re-analysis of the deposited data

Results flagged for a closer look

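Over all 65 genes, 1 fetus lay far from the other 3 by Dixon's ratio of gap to range in 14 of 130 groups of 4. Chance flags about 1 group in 20, but the groups share their fetuses and are not independent. In 11 of the 14 it was control 2, the only control numbered 09, and it was high. Its level was 469 FPKM for MRPS33 where the other controls reached 243 FPKM, 166.8 FPKM for MRPS24, 157.5 FPKM for MRPL40 where the others reached 77.8 FPKM, and 110.2 FPKM for MRPL11. It was 92.2 FPKM for MRPS18C, 84.1 FPKM for MRPL23, 81.1 FPKM for MRPL42, 58.0 FPKM for MRPL4, 61.1 FPKM for MRPL43 where the others were 36.1 to 36.4 FPKM, 41.0 FPKM for MRPL54 and 36.3 FPKM for MRPL2.

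Norepinephrine 2, the only treated animal numbered 10, was low for MRPS34 at 87.4 FPKM, with 132.8 to 141.6 FPKM in the other treated animals. Norepinephrine 4 was high for MRPL48 at 32.4 FPKM and norepinephrine 1 for MRPL9 at 82.6 FPKM.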

How the results depend on the processing

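Between treatments, 0 of the 65 genes passed under every alternative run. The number of all genes passing was 0 as reported, 1 with equal summed FPKM, 1 with the prefix as a covariate, 1 with both together (chosen after seeing the data) and 0 to 2 with 1 animal left out. The median of the 65 was -0.18 with gestational age in the model. The replicate block gave 0 genes passing, 646 at an unadjusted p under 0.05 and the same median, 0.19; it changed no call.

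Between number groups, all genes passing went from 2187 to 4346 with equal summed FPKM, 233 with the acinar mean, 1 with gestational age and 18 to 2272 with 1 animal left out, the lowest without control 2. Of the 65, 29 passed as reported, 7 with equal summed FPKM, 15 with equal upper quartiles, 5 with the acinar mean, 0 with age and 0 to 27 with 1 animal left out. Their median was 0.023 with equal sums, -0.25 with equal upper quartiles, -0.55 with the acinar mean and -0.50 to -0.37 with 1 animal left out. With equal sums the sign turned for 30 genes, of which 6 passed on one scale: MRPL42 (0.26), MRPL47 (0.31), MRPL45 (0.12), MRPS18A (0.050), MRPS6 (0.084) and MRPS7 (0.099). The other pseudocount, filters, median scaling and an untrended fit left the count at 22 to 30. Beyond the construction of each alternative, the cause was not tested. Depth was inferred only in relative terms.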
